A study of Mus musculus with 8 samples.

Results

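The 7 genes Ms4a3, Ms4a4b, Ms4a4c, Ms4a6b, Ms4a6c, Ms4a6d and Ms4a7 were taken by symbol from the 16464 genes of the normalised count table of posterior knee joint capsule, and all 7 were present. They were chosen by their normalised read counts in the cast and naive libraries, with the difference between the groups already known, so their values in that comparison are given as a description. In 1 group of male wild-type C57BL/6 mice the knee was immobilised at 140 degrees in a cast, starting at an age of 8 weeks and lasting 2 weeks, and their capsules gave 4 libraries. The other 4 libraries came from naive wild-type C57BL/6 mice, and the labels give an age of 10 weeks for both groups. Whether each library came from a separate mouse is not stated, so the spread that p-values rest on may be technical. The study compared the groups for gene expression after immobility.

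The Ms4a genes encode small proteins that cross the cell membrane several times, and most are used by cells of the blood lineages. The best known are Ms4a1, which encodes the B cell antigen CD20, and Ms4a2, which encodes the beta chain of the high-affinity IgE receptor of mast cells. Some others are described as adaptors that sit beside immune receptors in macrophages and T cells. In a joint capsule, a tissue made mainly by fibroblasts, such genes are known as marks of resident and incoming leukocytes.

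The family lies in 1 cluster on chromosome 19 (GENCODE release M21, build GRCm38). Its 11 genes with a row in the table run from Ms4a8a, which starts at 11067471, to Ms4a3, which ends at 11640851. In this order Ms4a7 lies on the minus strand (11321039 to 11336146), followed on the plus strand by Ms4a4c (11404770 to 11427246), Ms4a4b (11443553 to 11467055), Ms4a6c (11469366 to 11482192) and Ms4a6b (11516512 to 11531256). Ms4a6d (11586604 to 11604849) and Ms4a3 (11629496 to 11640851) lie on the minus strand. The coding parts of Ms4a4b and Ms4a4c were 91.7% identical, those of Ms4a6b and Ms4a6d 80.4%, and those of Ms4a6b and Ms4a6c 75.7%. Runs of 50 bases found also in transcripts of other genes made up 11.3% of the Ms4a6c transcript, 8.48% of Ms4a4c, 5.89% of Ms4a6b, 4.19% of Ms4a4b and 2.92% of Ms4a6d, and 0 of Ms4a7 and Ms4a3. Reads from such stretches could have been split between genes, which leaves the levels of the Ms4a4 and Ms4a6 genes uncertain. The reads were paired and 150 nt long, so these shares do not measure the size of that uncertainty. Antisense or other genes on the opposite strand overlap Ms4a4c (Gm5692), Ms4a6c (BE692007) and Ms4a6b (Gm19261), and whether counting used the strand is not stated.

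Promoters, from 250 bases before to 50 bases after a start given by RefSeq, were in the RefSeq table (build GRCm38.p6) for 6 of the 7 genes, all but Ms4a6d. For Ms4a6b and Ms4a4c the RefSeq start lies downstream of the first base of the GENCODE gene, so these windows lie inside the gene coordinates given above. Across the family, promoter pairs other than Ms4a6b with Ms4a6c and Ms4a4b with Ms4a4c were 47.7% to 57.7% identical. Ms4a6b and Ms4a6c were 64.0% identical. Their longest shared run, of 48 bases, is in capitals; the 2 sequences show how far these neighbours share letters around their RefSeq starts (chr19:11518309-11518608 and chr19:11469118-11469417, both plus strand).
Ms4a6b: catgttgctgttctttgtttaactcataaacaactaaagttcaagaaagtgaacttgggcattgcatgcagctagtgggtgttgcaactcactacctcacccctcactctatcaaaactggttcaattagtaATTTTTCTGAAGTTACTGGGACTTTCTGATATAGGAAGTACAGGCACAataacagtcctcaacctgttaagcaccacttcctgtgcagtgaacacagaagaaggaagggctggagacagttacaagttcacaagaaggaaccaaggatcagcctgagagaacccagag
Ms4a6c: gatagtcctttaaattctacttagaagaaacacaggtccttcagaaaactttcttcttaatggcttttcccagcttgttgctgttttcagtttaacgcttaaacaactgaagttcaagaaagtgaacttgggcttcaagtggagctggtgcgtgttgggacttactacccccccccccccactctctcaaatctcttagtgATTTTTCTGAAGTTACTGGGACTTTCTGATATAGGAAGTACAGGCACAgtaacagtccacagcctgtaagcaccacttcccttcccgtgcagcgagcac
Ms4a4b and Ms4a4c, the closest pair by coding part, were 76.7% identical in this window. Capitals mark GAGGAA on either strand, a short form of the motif of PU.1, a transcription factor of myeloid cells (chr19:11443308-11443607 and chr19:11407411-11407710, both plus strand).
Ms4a4b: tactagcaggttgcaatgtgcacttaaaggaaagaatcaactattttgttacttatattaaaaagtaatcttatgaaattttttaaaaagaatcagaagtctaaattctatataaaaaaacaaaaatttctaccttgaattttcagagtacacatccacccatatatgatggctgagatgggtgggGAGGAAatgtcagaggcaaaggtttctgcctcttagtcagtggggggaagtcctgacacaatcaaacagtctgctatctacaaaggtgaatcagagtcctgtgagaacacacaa
Ms4a4c: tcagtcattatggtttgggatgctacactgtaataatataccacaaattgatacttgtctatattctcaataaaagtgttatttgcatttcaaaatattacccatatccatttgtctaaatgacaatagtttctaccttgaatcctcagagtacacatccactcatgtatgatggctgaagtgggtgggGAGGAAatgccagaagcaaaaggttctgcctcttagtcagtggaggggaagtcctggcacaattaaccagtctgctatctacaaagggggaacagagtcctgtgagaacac
Ms4a3, whose reads were all in 2 cast libraries, is shown with GAGGAA and the C/EBP motif TTGCNNAA in capitals, which adjoin without overlap (chr19:11640802-11641101, minus strand).
Ms4a3: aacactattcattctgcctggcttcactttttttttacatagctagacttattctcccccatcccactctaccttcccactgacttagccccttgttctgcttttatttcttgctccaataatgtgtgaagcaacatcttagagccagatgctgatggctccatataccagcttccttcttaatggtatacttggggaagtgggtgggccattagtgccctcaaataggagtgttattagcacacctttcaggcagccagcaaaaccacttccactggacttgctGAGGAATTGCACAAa
Both strands were searched. GAGGAA was in 4 of the 10 promoters listed for genes of the family, against 28.3% of all 32851 promoters of the RefSeq table, and TTGCNNAA was in 2 of 10, against 10.8%. The interferon regulatory factor motif, GAAA and again GAAA after a gap of 2 bases, was in 0 of 10, against 3.44%. The 10 include more than 1 window of Ms4a7, and windows of Ms4a2, Ms4a4d and Ms4a8a, which are not among the 7 genes. GAGGAA was in Ms4a3, Ms4a4b, Ms4a4c and 1 window of Ms4a7, and TTGCNNAA in Ms4a3 and Ms4a4d. The windows of Ms4a6b and Ms4a6c held no match. A match is a description of letters in this window, not a binding site.

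The libraries held 5956148 to 7381255 recovered reads in the cast group and 1503880 to 6805349 in the naive group. Naive replicate 4 was the shallowest, and across genes it correlated with the other naive libraries at 0.882 to 0.897, while those 3 correlated with each other at 0.979 to 0.982. In it 41.7% of the 15120 genes tested lay below all other naive libraries, and the median gene was at 0.958 of the mean of the other 3. Ms4a6b, Ms4a6c, Ms4a7 and Ms4a6d were at 0.402, 0.464, 0.453 and 0.714 of that mean, so values with and without this library are given. Joint capsule fibroblast markers (Col1a1, Dcn, Prg4 and others) summed to 25831 to 43729 in cast and 27365 to 45960 in naive capsules, and 0 of the 7 were at 0.

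Ms4a6b, Ms4a6c, Ms4a6d and Ms4a7, the 4 most abundant genes of the family per kilobase of transcript, were each higher in every cast library than in any naive library. Levels are normalised read counts, that is reads scaled by the authors to make libraries of different depth comparable. In bulk tissue, more cells of a type and more RNA per cell cannot be told apart.

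Ms4a6c, a gene of mouse monocytes, was at 90.8, 72.4, 105.8 and 109.1 in cast replicates 1 to 4, against 40.4, 35.8, 40.8 and 18.1 in naive replicates 1 to 4. All cast libraries lay above all naive ones, and naive replicate 4 was the lowest. The group means were 94.5 ± 16.8 in cast and 33.8 ± 10.7 in naive capsules (SD, n = 4 each), a log2 fold change of 1.51 (SE 0.27) on the scale log2(value + 1) used throughout, and of 1.24 without naive replicate 4. Reads pooled over each group, per read of the group's libraries, gave a cast to naive ratio of 2.62 (95% interval 2.42 to 2.84). This and the other such intervals cover counting error only.

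Ms4a6b, found in mouse in T cells and myeloid cells, had values of 68.1, 48.1, 64.2 and 73.6 in the cast libraries and 27.6, 26.5, 28.1 and 10.996 in the naive libraries. Naive replicates 1 to 3 lay close together, and naive replicate 4 stood below them. Its log2 fold change was 1.48 (SE 0.30), or 1.17 (SE 0.16) without that library. It kept close to Ms4a6c within libraries: the level of Ms4a6b divided by that of Ms4a6c was 0.607 to 0.750 in cast and 0.607 to 0.739 in naive capsules.

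Ms4a6d, a macrophage gene whose protein is described in mouse as a partner of the receptor Vsig4, had 50.6, 49.5, 78.5 and 87.5 in the cast libraries and 26.1, 20.8, 29.3 and 18.1 in the naive libraries. Cast replicates 3 and 4 were above cast replicates 1 and 2, as they were for Ms4a6c and Ms4a4b but not for Ms4a6b, Ms4a7 or Ms4a4c. The log2 fold change was 1.44 (SE 0.24), and 1.32 without naive replicate 4.

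Ms4a7, a gene of tissue macrophages, had 59.99, 47.96, 70.4 and 51.9 in the cast libraries and 26.5, 17.4, 20.3 and 9.70 in the naive libraries. Again the groups did not overlap and naive replicate 4 was lowest. The log2 fold change was 1.65 (SE 0.28), and 1.39 without naive replicate 4.

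**Figure D1:**
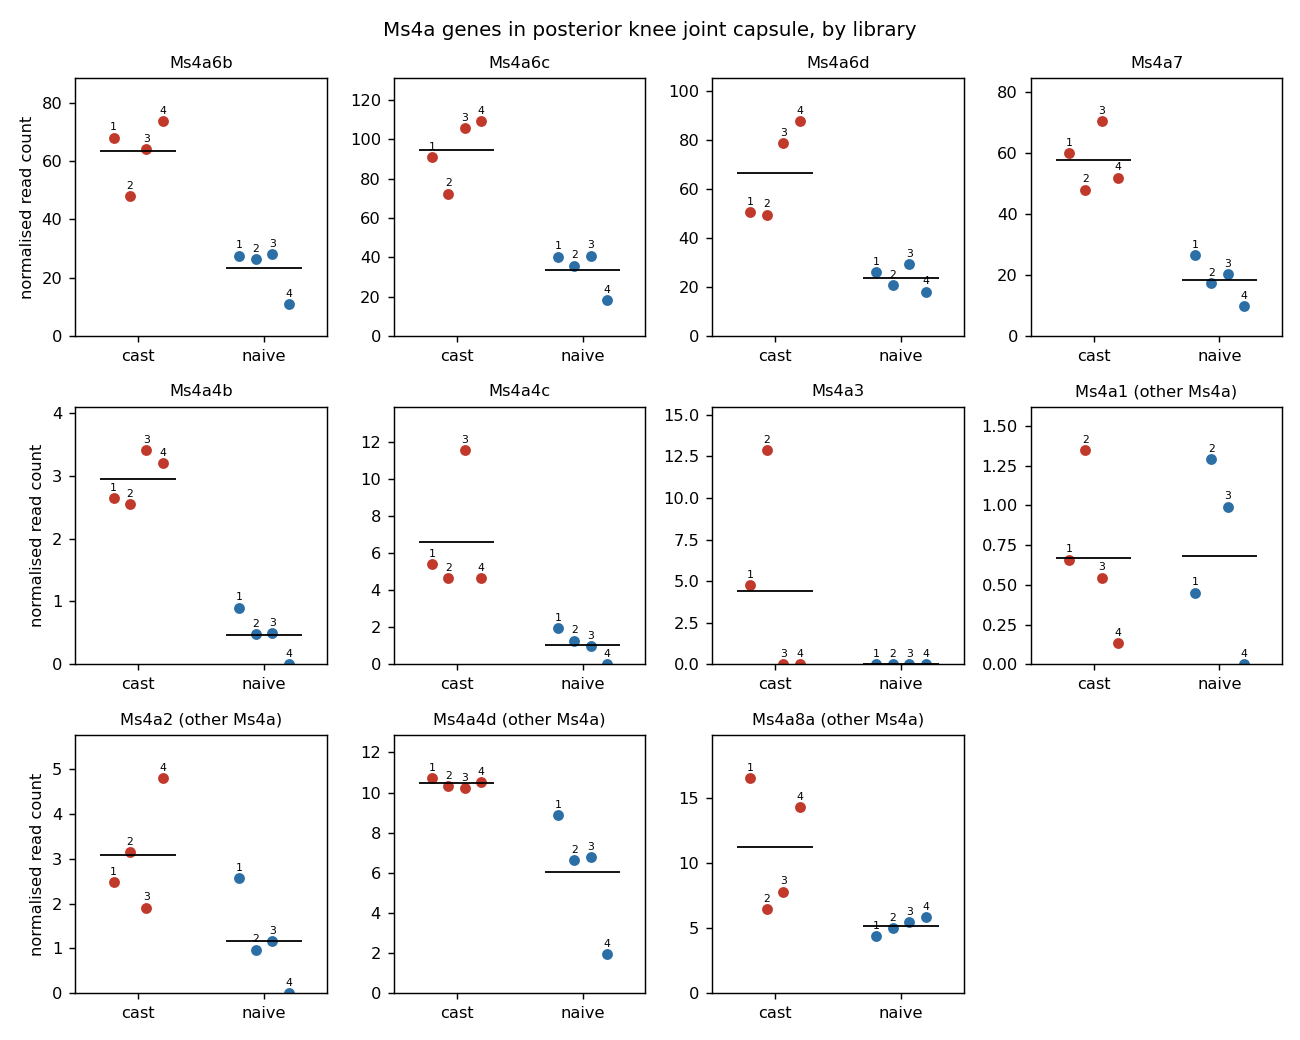
Normalised read counts of the 11 Ms4a genes in each library (points, numbered by replicate) of cast and naive capsules, with group means as lines; each panel has its own axis from 0. In the panels of Ms4a6b, Ms4a6c, Ms4a6d, Ms4a7, Ms4a4b and Ms4a4c, and also of Ms4a4d and Ms4a8a, the 4 cast libraries lie above the 4 naive libraries, and Ms4a3 has reads in cast replicates 1 and 2.

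Ms4a4b and Ms4a4c, which had far fewer reads, showed the same separation of groups. Ms4a4b, which in mouse is described as an adaptor of GITR, a costimulatory receptor of T cells, had 2.64, 2.55, 3.41 and 3.20 in the cast libraries and 0.904, 0.484, 0.496 and 0 in the naive libraries. These values rest on 16 to 25 reads per cast library and 0 to 6 per naive library. Pooled reads gave a ratio of 5.21 (95% interval 2.83 to 10.5), and the log2 fold change was 1.46 (SE 0.24), which understates the change of so low a gene.

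Ms4a4c, expressed in mouse monocytes, had 5.44, 4.65, 11.6 and 4.67 in the cast libraries and 1.96, 1.29, 0.992 and 0 in the naive libraries. Cast replicate 3 was more than 2 times the other cast libraries, which lay close together. Pooled reads, 184 of them cast and 27 naive, gave a ratio of 5.20 (95% interval 3.46 to 8.10), and the log2 fold change was 1.90 (SE 0.39). A value of 0 in naive replicate 4 allows a level of up to 1.94 (3 reads), which is at or above the level of both genes in the other naive libraries except for Ms4a4c in naive replicate 1, at 1.96.

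Ms4a3, a gene of marrow granulocyte and monocyte progenitors, was found in 2 libraries. It had 29 reads (4.78) in cast replicate 1 and 86 reads (12.9) in cast replicate 2, and 0 reads in cast replicates 3 and 4 and in all naive libraries. With reads pooled, its cast level was 29.2 times that of 3 reads in all naive libraries together, the floor taken here as its bound. That figure rests on cast replicates 1 and 2 and leaves out the counting error of the cast reads. The groups overlapped, because 2 of the 4 cast libraries were at 0.

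The same 2 libraries held the most reads of 6 genes transcribed in marrow precursors of neutrophils. Mpo, Elane, Ctsg, Prtn3 and Prss57 encode primary granule proteins, and Cebpe encodes a transcription factor. Cast replicates 1 and 2 had 334 and 961 reads of Mpo, the myeloperoxidase gene, the other cast libraries had 2 and 1, and the naive libraries had 0 to 12. Elane, neutrophil elastase, had 65 and 287 reads there, 1 and 2 in the other cast libraries and 0 to 4 in naive libraries. Prtn3, proteinase 3, was less restricted, with 120 and 290 reads there, 57 and 89 in the other cast libraries and 11 to 36 in naive libraries. Prss57 had a level of 3.46 and 4.65 in cast replicates 1 and 2, 0.273 and 0.267 in the other cast libraries, and 0.165 to 4.53 in naive libraries, the highest being the shallow naive replicate 4. Of the 6 genes of this list Prtn3 passed the test (log2 fold change 1.71, adjusted p = 0.0437 by limma with the Benjamini-Hochberg method), and 5 did not. The share of all genes tested that passed as a rise was 6.51%. Prtn3 was the gene of the list checked further. It passed in 10 of 20 alternatives (adjusted p up to 0.210), and without cast replicates 1 and 2 none of the 4 genes of the list that were tested passed. The list summed to 100.2 and 269.2 in those libraries, to 8.73 and 13.3 in the other cast libraries and to 4.13 to 16.8 in naive capsules. Its part in the level of Ms4a3 was not tested. Without cast replicates 1 and 2, Ms4a3 had no reads in any library, while Ms4a6c and Ms4a6d had log2 fold changes of 1.71 and 1.80.

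**Figure D2:**
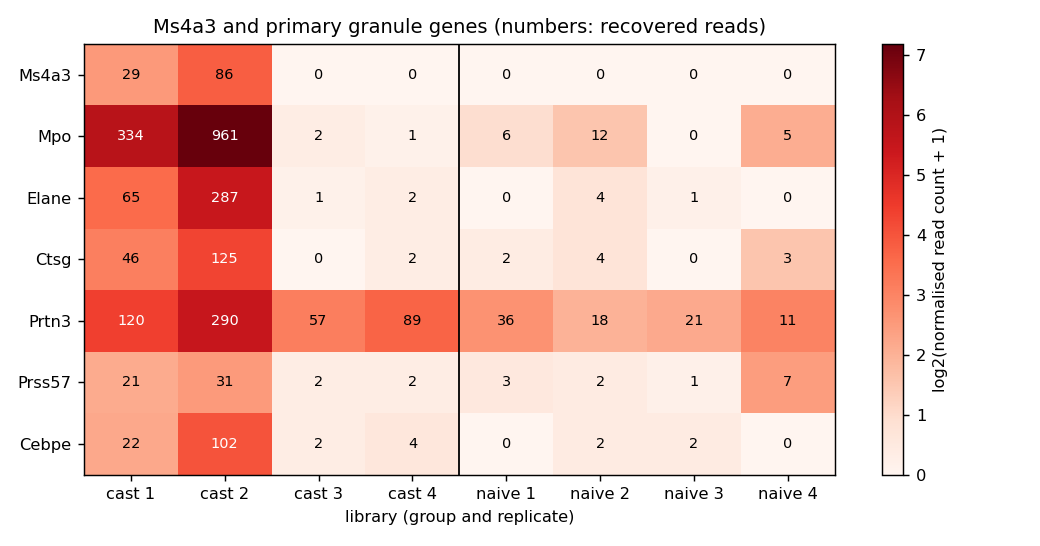
Ms4a3 and the 6 marrow precursor genes (rows) are shown in the 8 libraries (columns, cast left of naive). Colour is log2(normalised read count + 1) and the numbers are recovered reads. Cast replicates 1 and 2 hold 29 and 86 reads of Ms4a3 and 334 and 961 of Mpo, while the other cast libraries hold 0 of Ms4a3 and at most 2 of Mpo.

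In the fit over all 15120 genes, 6 of the 7 genes passed in the direction of a rise (limma, Benjamini-Hochberg adjusted p at most 0.05), against 6.51% of all genes tested, and Ms4a3 did not pass. The same 6 had all cast above all naive libraries, against 11.1% of all genes tested. Without naive replicate 4 the same 6 genes passed, against 9.12% of all genes rising; edgeR and DESeq2 on recovered reads also called 6, against 7.29% and 9.69%. Since the genes were chosen on this comparison, nothing is read from these counts. The median log2 fold change of the 7 was 1.51, also with Ms4a3 at its bound, and that of all genes tested was 0.07. All 7 passed the filter of a mean of 0.5, Ms4a3 through cast replicates 1 and 2 alone. Without cast replicates 1 and 2, a comparison added after seeing the data, 3 of 6 genes tested passed (Ms4a4b, Ms4a6c and Ms4a6d), against 2.49% of all genes rising.

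**Figure D3:**
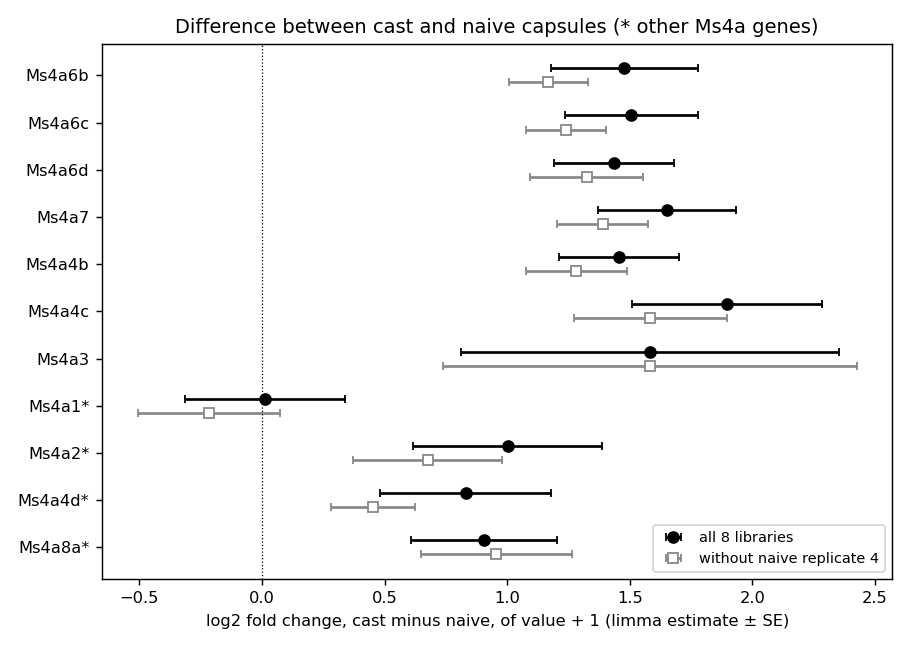
Log2 fold changes of the 11 Ms4a genes, cast minus naive, with SE from limma and 1 added to each value, for all 8 libraries (filled circles) and without naive replicate 4 (open squares). Without that library the estimate of Ms4a6b is 1.17 in place of 1.48 and that of Ms4a4d 0.45 in place of 0.83; the position of Ms4a3 depends on the added 1.

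The 4 other Ms4a genes of the table were Ms4a1, Ms4a2, Ms4a4d and Ms4a8a, of which limma called 0. Unadjusted p in limma was 0.027 for Ms4a2, 0.039 for Ms4a4d and 0.013 for Ms4a8a. The share of all genes with so small a p is not given, so nothing is read from these values. With edgeR 1 was called as a rise, against 7.29% of all genes tested, and with DESeq2 1, against 9.69%. Ms4a1, the CD20 gene of B cells, had 0.659, 1.35, 0.545 and 0.133 in cast and 0.452, 1.29, 0.992 and 0 in naive libraries, that is 18 cast and 17 naive reads in all (log2 fold change 0.01, adjusted p = 0.986). The groups overlapped fully. Ms4a2, the IgE receptor beta chain of mast cells, had 2.47, 3.15, 1.91 and 4.80 in cast and 2.56, 0.968, 1.16 and 0 in naive libraries (log2 fold change 1.002, adjusted p = 0.131).

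Ms4a4d, a close neighbour of Ms4a4b and Ms4a4c in sequence, had 10.2 to 10.7 in the cast libraries and 8.89, 6.61, 6.78 and 1.94 in the naive libraries. All cast libraries lay above all naive ones, yet the difference did not pass (log2 fold change 0.83, adjusted p = 0.164; 0.45 without naive replicate 4, adjusted p = 0.100). Ms4a8a, described in mouse macrophages, had 16.5, 6.44, 7.77 and 14.3 in cast and 4.37, 5.001, 5.46 and 5.82 in naive libraries (log2 fold change 0.90, adjusted p = 0.0799). It was the 1 gene of the 4 that edgeR and DESeq2 called. Naive replicate 4 was its highest naive library, at 1.18 of the mean of the other 3. Ms4a4a was not analysed here.

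Per kilobase of transcript, which allows levels of different genes to be compared, the order in cast capsules began with Ms4a6c (51.3 ± 9.11), Ms4a6d (46.9 ± 13.7), Ms4a7 (36.5 ± 6.28) and Ms4a6b (23.7 ± 4.09; SD, n = 4). In naive capsules the same 4 led in the same order, at 18.4 ± 5.81, 16.6 ± 3.55, 11.7 ± 4.43 and 8.69 ± 3.07. The neighbours Ms4a6c and Ms4a6d overlapped in both groups, and Ms4a6d and Ms4a7 did too, while Ms4a7 and Ms4a6b overlapped in naive capsules but not in cast capsules. Ms4a8a followed with 10.4 ± 4.52 in cast and 4.78 ± 0.58 in naive capsules, and Ms4a4d with 6.91 ± 0.14 and 4.003 ± 1.94. Ms4a3 (4.37 ± 6.02), Ms4a4c (3.82 ± 1.95) and Ms4a2 (3.05 ± 1.24) overlapped in cast capsules, and Ms4a4b (0.621 ± 0.089) and Ms4a1 (0.218 ± 0.164) came last. Transcript lengths are those of the GENCODE transcript with the longest coding part, and the lengths used in counting are not stated.

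For the leading genes, shares of the family overlapped between groups. Ms4a6b, Ms4a6c, Ms4a6d and Ms4a7 together made up 79.1% to 88.6% of the family's summed level per kilobase in cast libraries and 82.9% to 85.0% in naive libraries. Ms4a6c alone was 25.4% to 28.3% in cast and 24.9% to 29.3% in naive libraries, and the ranges overlapped. Ms4a3 took 2.60% and 8.24% of the sum in cast replicates 1 and 2 and 0 elsewhere. The summed level per kilobase was 181.9, 154.9, 204.9 and 209.7 in the cast libraries and 81.4, 66.3, 77.9 and 39.5 in the naive libraries.

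Of 8 genes whose proteins are described as working with Ms4a proteins, 5 rose and 3 did not pass, against 6.51% of all genes tested rising. Their median log2 fold change was 1.15, against 0.07 over all genes tested. Fcer1a, the alpha chain of the IgE receptor, had 4.12, 5.84, 4.91 and 21.5 in cast and 0.904, 1.61, 0 and 0.647 in naive libraries (log2 fold change 2.29, adjusted p = 0.0156). Fcer1g, its gamma chain, which also serves other receptors of myeloid cells, had a log2 fold change of 0.996 (adjusted p = 0.0177). Clec7a, the beta-glucan receptor Dectin-1, had 25.4, 32.1, 34.4 and 22.7 in cast and 7.08, 6.45, 9.09 and 0 in naive libraries (log2 fold change 2.56, adjusted p = 0.0308), or 1.79 without naive replicate 4 (adjusted p = 0.000588). Tyrobp, the adaptor DAP12, had a log2 fold change of 1.31 (adjusted p = 0.0155). Cdkn3, a phosphatase that binds MS4A3 in human cells, had one of 1.33 (adjusted p = 0.0139 by limma). Fcer1a passed in 20 of 20 alternatives, Tyrobp in 18, Fcer1g in 17 and Clec7a in 13, and Cdkn3 in 17 of 19.

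The 3 that did not pass were Trem2, Tnfrsf18 and Vsig4. Trem2, the lipid receptor of macrophages that signals through Tyrobp, had a log2 fold change of 0.48 (adjusted p = 0.231), and Tnfrsf18, which encodes GITR, one of 0.29 (adjusted p = 0.579). Vsig4, a complement receptor of resident macrophages, had 17.0, 33.3, 26.2 and 39.3 in cast and 64.04, 50.3, 83.99 and 20.7 in naive libraries (log2 fold change -0.80, adjusted p = 0.258), and passed as a fall without naive replicate 4 (-1.20, adjusted p = 0.0180). Without cast replicates 1 and 2, 2 of the 8 passed, Fcer1a and Fcer1g, against 2.49% of all genes rising.

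Markers of the cell types that use Ms4a genes moved unequally. For comparison, 6.51% of all genes tested rose and 5.46% fell. The share rising was 9.12% without naive replicate 4 and 2.49% without cast replicates 1 and 2. Of 12 macrophage markers 0 passed as a rise and Folr2, of resident macrophages, fell (11.7, 41.1, 25.9 and 64.1 in cast, against 131.1, 93.7, 128.8 and 200.5 in naive libraries; log2 fold change -2.11, adjusted p = 0.0166), with a median of 0.18. Mrc1 was higher in every cast library (786.9 to 1280) than in any naive library (396.5 to 750.9). It did not pass (log2 fold change 0.78, adjusted p = 0.0928 by limma). Fcgr1 overlapped between groups and did not pass (log2 fold change 1.01, adjusted p = 0.123 by limma). Without naive replicate 4, Cd68, Lyz2 and Fcgr1 passed as rises (median 0.39), and without cast replicates 1 and 2 none of the 12 passed. Their summed level was 4525 to 6532 in cast and 2930 to 6170 in naive capsules, with naive replicate 4 the highest of the naive libraries. Of 8 monocyte markers 5 rose, among them Ly6c2, Plac8, Chil3 and F10, and Fn1, fibronectin, which capsule fibroblasts also make, fell, with a median of 2.86. Without naive replicate 4, 6 of the 8 rose. Without cast replicates 1 and 2, 4 rose and Ly6c2 did not pass. With Fn1 included, the list summed to 4494 to 12731 in cast and 17584 to 31801 in naive capsules. Chil3, which encodes the chitinase-like protein Ym1, had 99.4 to 389.5 in cast and 0.301 to 2.58 in naive libraries (log2 fold change 6.77, adjusted p = 0.000131), and Plac8 had 18.1 to 39.8 in cast and 0.992 to 2.26 in naive libraries (log2 fold change 3.58, adjusted p = 0.000198).

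Within a library, the log2 level of Ms4a6c minus the mean log2 level of the 12 macrophage markers was -1.28 ± 0.22 in cast and -2.68 ± 0.86 in naive capsules (SD, n = 4 each), and -2.26 in naive capsules without replicate 4. Minus the 8 monocyte markers it was -0.19 ± 0.67 in cast and 0.94 ± 0.37 in naive capsules. Ms4a6c was thus higher in cast capsules relative to the macrophage list and lower relative to the monocyte list. Ms4a7 gave -1.98 ± 0.40 in cast and -3.53 ± 0.86 in naive capsules against the macrophage list, and -0.90 ± 0.52 and 0.09 ± 0.46 against the monocyte list. Against the monocyte list, the groups overlapped for Ms4a6b, Ms4a6d and Ms4a4c. Their means were -0.76, -0.72 and -3.92 in cast and 0.40, 0.48 and -3.17 in naive capsules. These differences come from the comparison in which the genes were listed and were not tested.

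**Figure D4:**
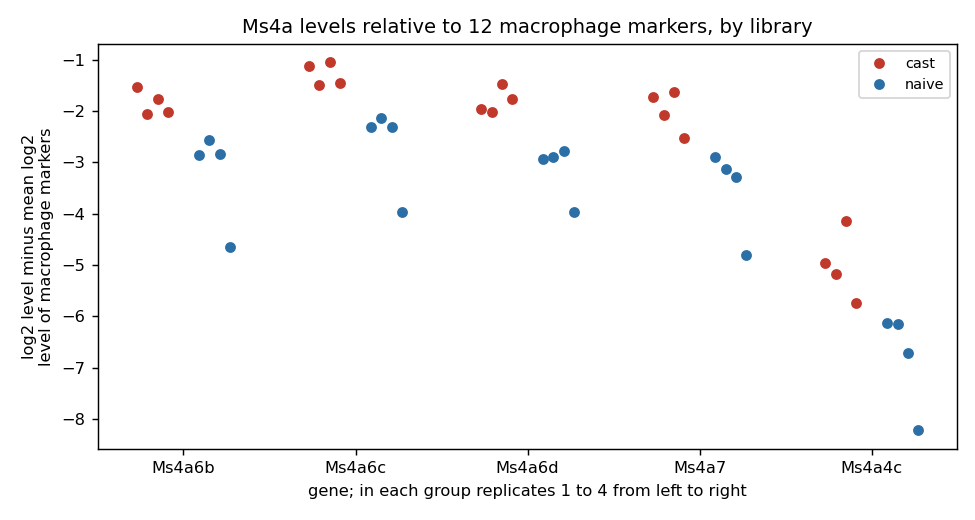
Log2(value + 1) of Ms4a genes minus the mean of 12 macrophage markers in the same library, cast points left of naive points. For Ms4a6c the cast libraries average -1.28 and the naive libraries -2.68, with naive replicate 4 the lowest point of every gene.

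T cell and natural killer cell markers, of cells that use Ms4a4b and Ms4a6b, rose in 7 of 10 members tested and did not pass in 3, with a median of 1.24. The share of all genes tested that rose was 6.51%. Without naive replicate 4, 6 of the 10 rose, against 9.12% of all genes. Without cast replicates 1 and 2, 5 rose, against 2.49% of all genes. Cd3e, of the T cell receptor complex, had 2.001 to 2.9996 in cast and 0 to 0.165 in naive libraries (log2 fold change 1.71, adjusted p = 0.00126). Lck, a kinase of T cells, had 2.47 to 3.95 in cast and 0 to 0.484 in naive libraries (log2 fold change 1.75, adjusted p = 0.00180). The summed level of the list, 27.7 to 39.8 in cast and 6.33 to 7.76 in naive capsules, separated the groups as Ms4a4b did. Its part in the level of Ms4a4b was not tested.

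Of 11 neutrophil markers 10 rose (median 4.99), for example Csf3r (97.4 to 193.3 in cast, against 6.18 to 18.1 in naive libraries; log2 fold change 3.63, adjusted p = 0.000347). Without cast replicates 1 and 2, 8 of the 11 rose (median 3.55), against 2.49% of all genes. With all libraries, 6.51% of all genes tested rose and 5.46% fell, and without naive replicate 4, 9.12% rose. Of 7 mast cell markers Fcer1a and Hdc rose and 5 did not pass (median 0.84), beside Ms4a2, which did not pass. Fcer1a passed in 20 of 20 alternatives and Hdc in 13. Of 6 B and plasma cell markers tested, 0 passed with limma, edgeR or DESeq2 and 0 had an unadjusted p under 0.05 in limma (median 0.24), beside 18 cast and 17 naive reads of Ms4a1. The B and plasma cell list summed to 18.3, 18.1, 15.4 and 2.40 in cast replicates 1 to 4. In naive replicates 1 to 4 it summed to 2.71, 3.23, 4.96 and 22.0. Without naive replicate 4, Cd22 rose, and the median of the 5 tested was 0.84. Of 7 fibroblast markers Lum rose (median -0.0036), of 6 red cell markers 6 rose (median 2.51), and of 6 skeletal muscle markers Acta1, Ckm and Mylpf fell (median -3.93). Acta1, Ckm and Mylpf overlapped between groups, and passed in 18, 14 and 8 of 20 alternatives. Without cast replicates 1 and 2, 0 of the fibroblast, 2 of the red cell and 0 of the muscle markers passed. Without naive replicate 4, all 6 muscle markers fell (median -4.96). In that setting Lum rose and Prg4 fell (log2 fold change -1.45, adjusted p = 0.0178 by limma). The summed level of muscle markers was 9.14 to 279.02 in cast and 82.1 to 2071 in naive capsules, where naive replicate 4 was the lowest. Its part in the Ms4a values was not tested.

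**Figure D5:**
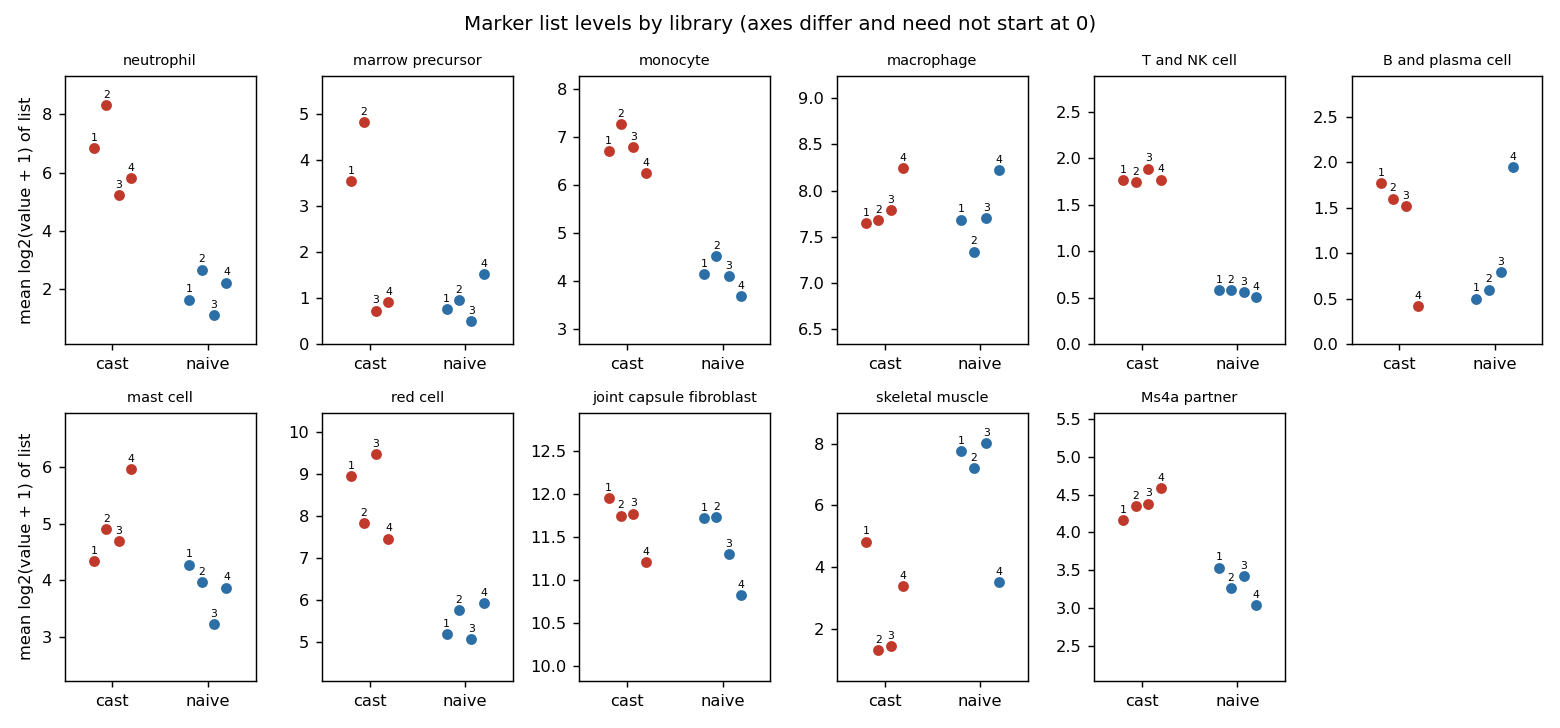
Mean log2(value + 1) of each list in each library (points, numbered by replicate), cast left of naive; the axes differ between panels. Cast lies above naive in every library in the neutrophil, monocyte, T and NK cell, mast cell, red cell and Ms4a partner panels, the groups overlap in the macrophage panel, and cast replicates 1 and 2 stand above all others in the marrow precursor panel.

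By Pearson correlation of log2 levels over the 8 libraries, given as a description since the libraries share the group difference and naive replicate 4, Ms4a6b and Ms4a6c were the closest pair among the 7 (0.993). Among 14063 other genes the closest to Ms4a6c were Clec4a1, a C-type lectin of myeloid cells (0.988), Npm1, nucleophosmin (0.985), and Spaca1 (0.985), which rested on low values. Closest to Ms4a6b were Tasp1 (0.992), Adam9 (0.990) and Cda (0.986), and to Ms4a6d Eef1b2 (0.991), Ggta1 (0.989) and Rasgrp1 (0.987). Ms4a7 was closest to Phldb2 (0.989), Riok3 (0.988) and Mfsd1 (0.987). Mfsd1 (0.996) also led for Ms4a4b, before Lcp2, an adaptor of T cell receptor signalling (0.995), and Btg1 (0.993), while Ms4a4c was closest to Tcf19 (0.980), Birc3 (0.978) and Rai14 (0.976). Ms4a3 had correlations of 0.256 to 0.439 with the other 6, and was closest to Cpa6 (0.999), Jchain, a plasma cell gene (0.997), and Elane (0.994). Its values follow from reads in cast replicates 1 and 2 alone, so any gene largely confined to those libraries ranks near the top. Cpa6 rested on low values, 1.98 and 3.45 in those libraries and 0 in the others.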

How the data were processed

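RNA of posterior knee joint capsule was sequenced in 8 directional, ribosomal RNA-depleted libraries with paired 150-nt reads, per the labels' protocols. Those protocols state trimming with Trimmomatic 0.38 and mapping to human transcripts (hg38) by RSEM and Bowtie2. The submitters' processing notes list mm10 and Trimmomatic 0.36 beside the same mapping tools and edgeR. The conflict could not be settled, though gene symbols are those of mouse, and the annotation used for counting is not given in the sources used here. The authors deposited normalised read counts, a signal per gene for every library. Dividing by the worth of 1 read gave whole reads for 100% of values (tolerance 0.01), and no gene summed to fewer than 8 reads.

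Values were taken to log2 after adding 1, a mean of 0.5 or more was required (15120 genes), and groups were compared with limma-trend over all of them, with Benjamini-Hochberg adjustment. The scripts were tested on simulated data. The genes, lists and tests were chosen with earlier results of these data known. The genes to be named were all Ms4a genes, the 8 partner genes, the 3 markers of each list with the smallest p, of which some are not printed, and the 3 genes closest to each of the 7 by correlation, leaving out predicted and clone names. The values of 1 monocyte marker are not reported here. Further markers are named where a count turns on them, and Mpo was added after its values were seen. Coordinates are from GENCODE M21 (GRCm38). Alternatives were other pseudocounts, filters, scalings and models and each library left out; edgeR's quasi-likelihood test and DESeq2 used the recovered reads. Analyses ran under Python 3.11.15 (scipy 1.17.1, Biopython 1.88) and R 4.3.3 with edgeR 4.0.16, DESeq2 1.42.0 and limma 3.58.1.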

Additional observations from a re-analysis of the deposited data

Results flagged for a closer look

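Of 22 combinations of an Ms4a gene and a group, 2 held a library whose gap to the next, as a share of the group's range, exceeded the 95% critical value of Dixon's test for 4 samples, as chance does in about 1 of 20 groups. Ms4a4c was at 11.6 in cast replicate 3, above the other cast libraries at 4.65 to 5.44. Ms4a6b was at 10.996 in naive replicate 4, the shallowest library, below the other naive libraries at 26.5 to 28.1.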

How the results depend on the processing

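The number of genes past the threshold, 1810 with all libraries, was 3985 with array weights, 2754 with DESeq2 and 717 without cast replicates 1 and 2, and 916 (without cast replicate 3) to 2665 (without naive replicate 4) when each library was left out in turn; the cause was not tested. It was 1010 without naive replicate 2, 1043 without naive replicate 3 and 1143 without cast replicate 2. Of the 7 Ms4a genes, 6 passed under each alternative other than the filter at 2.5, where Ms4a4b was not tested and 5 passed, and the removal of cast replicates 1 and 2, chosen after seeing the data. In that last case 3 passed, and Ms4a4c, Ms4a6b and Ms4a7 did not; that fit holds fewer samples. Ms4a3 passed in none of the 18 alternatives that tested it. Of the other Ms4a genes, 0 with limma on all libraries, 1 passed with array weights, 1 with edgeR and 1 with DESeq2, and 0 when any 1 library was left out. Of the marker and partner genes, 41 passed, 22 without cast replicates 1 and 2, and 26 to 51 with 1 library left out (26 without cast replicate 3). The sign of Ms4a1 turned to -0.0017 with a pseudocount of 5, -0.18 with quantile normalisation, -0.16 with array weights, -0.28 with edgeR and -0.22 with DESeq2, to -0.28 without cast replicates 1 and 2, and ranged from -0.22 to 0.18 with 1 library left out. Same-numbered libraries did not deviate together (correlations of -0.057 to 0.080; 1 of 8 libraries correlated best with its own number). With the replicate number as a block, 1371 genes passed, 6 of the 7 Ms4a genes and 32 marker and partner genes, and Ms4a1 was at 0.01. Depth limits Ms4a3, Ms4a4b, Ms4a4c, Ms4a1 and Ms4a2 most, above all in naive replicate 4, where 1 read was worth 0.647.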
